A study of Mus musculus with 70 samples.

Results

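The regions described here are places in the mouse genome where a CTCF peak appeared or disappeared between the earlier and the later fetal forebrain. Gained sites were peaks of the forebrain (FB) list at embryonic day 16.5 (E16.5) that overlapped a peak at E15.5 by at least 1 bp and none at E12.5 or E13.5. Lost sites were peaks at E12.5 that overlapped a peak at E13.5 and none at E15.5 or E16.5. This rule found 3499 gained sites among the 48577 peaks at E16.5 (7.20%) and 863 lost sites among the 43838 peaks at E12.5 (1.97%), 4362 regions in all against 607750 peaks in the 12 lists of the series. Another 34574 peaks at E16.5 overlapped a peak at each of the other 3 stages and are called constant sites, and they are used as the comparison.

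The series joined CTCF ChIP-seq to PLAC-seq, which captures ligated DNA fragments with an antibody against H3K4me3, a histone mark of promoters, and so reads out contacts between promoters and other places. All groups used here were bulk fetal or newborn tissue collected from C57BL/6N mice, with no altered gene or treatment named, and forebrain was taken daily from E12.5 until E16.5 and at birth (P0). Each of the 4 stages of the rule had 2 CTCF libraries from separate biological replicates, which the authors merged into 1 peak list, the 2 libraries at E14.5 were technical replicates, and P0 had 1 library. PLAC-seq had 2 biological replicates at each stage, with 16075 to 36794 called interactions per library over the 4 stages compared. Liver, limb, craniofacial prominence, neural tube, hindbrain and midbrain had CTCF lists at E12.5 only, and the liver list also came from technical replicates. Because a stage had a single CTCF list, no replicate error could be given for the sites themselves, and their features are described without a test. In bulk tissue, fewer cells with a bound site and weaker binding in each cell cannot be told apart.

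CTCF, a protein with many zinc fingers, recognises a long DNA motif that has a direction. Cohesin extrudes loops of chromatin until it meets bound CTCF, so that loops tend to run from a motif in the direction it points, and most loop anchors hold a pair of motifs facing each other. Most CTCF sites are shared between cell types, whereas the minority that vary often have weaker motifs or lie where DNA methylation of CpG dinucleotides can block binding. In the forebrain over this period, dividing progenitors give way to neurons that migrate, extend axons and begin to express synaptic genes.

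The motif was estimated from the summits of the 5000 constant sites with the highest fold enrichment, without any outside matrix, and 4944 of them contributed. Its 19 positions read nnnCCnCnAGGnGGCnnnn, with a letter where a position carried at least 1 bit of information and n elsewhere, and this is the known core of CTCF. The sequences below are the best match in selected sites, from the GRCm38 (mm10) reference, 5′ to 3′ on the strand of the motif, with the 19 motif bases in capitals and 5 flanking bases on each side in lower case. The first 5 are the 2 gained and 3 lost sites with a motif that had the highest mean fold enrichment over the 2 stages that listed them. Their sequences come from the E16.5 peak of gained and the E12.5 peak of lost sites. Those peaks had a fold enrichment of 3.49 to 5.13, and the high mean came from a stronger overlapping peak at the other stage. Departures from the core in these 5 are thus those of weak peaks.
Gained near Mapt, chr11:104230637-104230665, plus strand: cttgaCATCCAGCAGGTGGCCATCtccag
Gained near Gm20219, chr17:56552574-56552602, plus strand: aaacaGGGACAATGGGGGGCAGGGtcaca
Lost near Adamtsl5, chr10:80341302-80341330, plus strand: gtgtgGGGCCAGTGGTGGGCACGGacagt
Lost near Snx13, chr12:35193283-35193311, minus strand: agtggAGGGGAGCAGGGGGCAGGGatgcc
Lost near Mbl2, chr19:30205049-30205077, minus strand: tgcagTAGCCAGCAGTGGGTGTTGgacct
The next 6 were chosen after the values were seen, among the strongest sites whose summit was shared by both listing stages, which is explained with the fold enrichments.
Gained near Nsun3, chr16:62500472-62500500, minus strand: gacatTCCCCACAGGATGGCATCCatcag
Gained near Nek1, chr8:61075200-61075228, plus strand: tacttTTGTCACTTGGTGGCACTGctgat
Gained near Snapc3, chr4:83410129-83410157, plus strand: cagacACTCCAGGAGAGGGCATCAgatgt
Lost near Ctnna3, chr10:63574397-63574425, minus strand: atggcTCACCAGCAGGGGGAGTCAttgca
Lost near Gm1979, chr5:25996320-25996348, plus strand: cactgTGACCACTAGGAGGCGCAGtgatg
Lost near Rnls, chr19:33268230-33268258, minus strand: tacctCCGCCAACAGGGGGCAGTGtggag
The match to the matrix was 7.32 to 13.4 bits for the first 5 sites. In the same unit it was 10.9, 14.03 and 12.3 for the 3 gained sites near Nsun3, Nek1 and Snapc3 and 17.2, 19.5 and 19.6 for the 3 lost sites near Ctnna3, Gm1979 and Rnls. Over all sites the median was 13.2 bits for gained, 15.4 bits for lost and 17.5 bits for constant sites. The constant sites include the 5000 used to estimate the matrix, so their scores are not an independent comparison.

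The excess of gained over lost sites depended on how the lists were read. With the full lists there were 4.05 gained sites for each lost one. When each of the 4 lists was first cut to its 30000 peaks with the highest fold enrichment, there were 1017 gained and 922 lost sites. The authors deposited a second list for each stage, in which E15.5 had 36453 peaks in place of 55758, and with those lists the order turned round, to 1026 gained and 2237 lost sites. Of the 3499 gained sites, 694 (19.8%) were gained in the second lists too, and of the 863 lost sites, 593 (68.7%) were lost there too. Only 103 gained and 29 lost sites were among the top 30000 in both stages that listed them and absent from the full lists of the other 2 stages. The E15.5 libraries were, per the labels, each sequenced on different machines with single and paired-end reads, and the same is given for the hindbrain libraries and 1 liver library. The part of that in these counts was not tested.

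**Figure D1:**
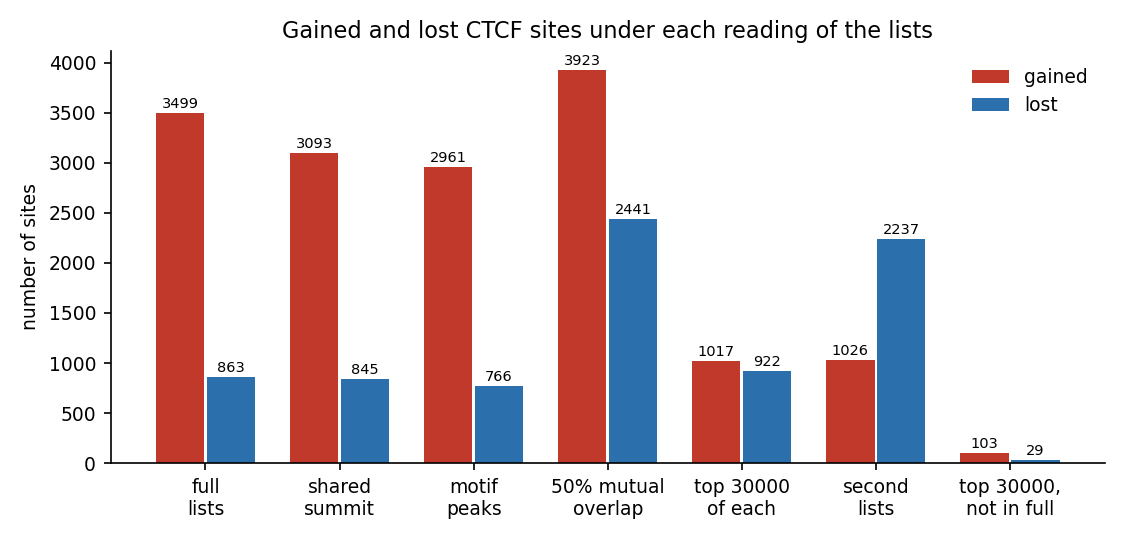
Number of gained (red) and lost (blue) CTCF sites under 7 readings of the forebrain lists, as bars from 0. The gained bar is the taller in 6 of the 7 readings, from 3499 against 863 in the full lists to 1017 against 922 in the top 30000, and the order turns round in the second lists, with 1026 against 2237.

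Gained and lost sites were weak peaks. Fold enrichment over input at E16.5 had a median of 4.64 at gained sites (quartiles 3.84 and 5.59, highest 18.8) and of 13.03 at constant sites. At E12.5 the lost sites had a median of 5.32 (quartiles 4.41 and 6.27, highest 11.9) against 13.8 at constant sites. Relative to the constant sites of the same list, the gained sites stood at 0.341 at E15.5 and 0.356 at E16.5, and the lost sites at 0.385 at E12.5 and 0.344 at E13.5. Their peaks were also narrow, with a median width of 281 bp for gained and 236 bp for lost sites against 528 bp for constant sites. The fold enrichment at rank 30000 of the E12.5, E13.5, E15.5 and E16.5 lists was 6.89, 6.88, 6.02 and 6.43, so most gained and lost sites lay below that rank.

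Absence from a list was often close to presence. An early peak lay within 1 kb of 695 of the 3499 gained sites (19.9%) without overlapping it, and within 100 bp of 114 of them. A late peak lay within 1 kb of 74 of the 863 lost sites (8.58%) and within 100 bp of 10.

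The 10 gained sites with the highest mean fold enrichment over E15.5 and E16.5 were places where a strong E15.5 peak, whose summit lay outside the site, overlapped a weak E16.5 peak. At the first of them, 41.4 kb from the start of Glrx3 on chromosome 7, the values were 59.2 at E15.5 and 4.09 at E16.5. The site 0.676 kb from a start of Mapt, the gene of the microtubule protein tau, had 57.0 and 3.49. The other 8 had 40.3 to 55.04 at E15.5 and 3.02 to 5.44 at E16.5, and none of the 10 was among the 103. The 4 lost sites with the highest mean, near Adamtsl5, Snx13, Mbl2 and Tmem63a, were of the same kind, with 3.76 to 4.70 at E12.5 and 16.6 to 42.7 at E13.5. A summit of the overlapping E15.5 peak lay inside the E16.5 peak at 3093 of the 3499 gained sites, and a summit of the E13.5 peak lay inside the E12.5 peak at 845 of the 863 lost sites.

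Among those 3093 gained sites the strongest was intergenic, 266.7 kb from Nsun3 on chromosome 16. Its fold enrichment was 18.8 at E16.5 and 7.74 at E15.5, the stages that defined it, with 11.2 at E14.5 and 13.9 at P0. The next, in an intron of the kinase gene Nek1 on chromosome 8, had 18.1 at E16.5, 7.47 at E15.5, 5.68 at P0 and 18.5 at E14.5. All 10 strongest sites of this kind were listed at both E14.5 and P0, the intervening and the following stage, which the rule did not use. One of them lay in an intron of Kcnn2, which encodes a calcium-activated potassium channel, with 16.5 at E16.5, 5.23 at E15.5 and 12.4 at P0. Another, 36.03 kb from Mrps10 on chromosome 17, had 6.68 at E15.5 and 14.3 at E16.5.

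The strongest lost sites with a shared summit were mostly listed in more of the other tissues than the gained ones. The site 0.108 kb from a start of Ctnna3, an alpha-catenin gene on chromosome 10, had a fold enrichment of 11.9 at E12.5, 7.07 at E13.5 and 9.51 at E14.5, no peak at E15.5 or E16.5, and 5.24 at P0. The site in an intron of Rnls on chromosome 19 had 7.90, 9.79 and 12.2 at the first 3 stages and 6.63 at P0. Of the 10 strongest lost sites of this kind, all were listed at E14.5, 9 were listed again at P0, and 8 were listed in all 6 other tissues at E12.5. The 10 strongest gained sites of this kind were listed in 1 to 6 of those tissues. The site near Gm1979 was the one without a P0 peak.

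Some of the lists that the rule did not use held gained and lost sites in unequal shares. At E14.5, between the stages compared, 70.9% of gained and 70.5% of lost sites overlapped a peak. At P0 the shares were 70.8% and 61.2%, so that most lost sites had a peak again in the longest forebrain list, of 62782 peaks. That list came from 1 library, and the second list for P0 had 32625 peaks. Both the E14.5 and the P0 list held 1892 gained sites (54.1%) and 399 lost sites (46.2%), and 433 gained (12.4%) and 126 lost sites (14.6%) were in neither. The constant sites were listed at 99.4% and 98.6%.

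In the other tissues at E12.5 the lost sites were listed more often than the gained ones in all 6. The share of gained sites with a peak was 34.1% in midbrain, 37.6% in hindbrain, 27.6% in neural tube, 34.2% in limb, 36.1% in craniofacial prominence and 20.98% in liver. The share of lost sites was 60.5%, 46.1%, 47.2%, 55.3%, 59.4% and 51.7% in the same order. No peak in any of the 6 tissues overlapped 850 gained sites (24.3%) and 58 lost sites (6.72%). The log2 ratio of the gained to the lost share was 0.010 at E14.5 and 0.21 at P0 in the forebrain, and lay between -1.30 (liver) and -0.29 (hindbrain) in the other tissues. The mean of the 2 forebrain lists exceeded that of the 6 others by 0.88 (exact permutation test over 28 ways, 2-sided p = 0.0357, the smallest this design allows). The other tissues were sampled at E12.5, a stage at which the rule required gained sites to be absent and lost sites to be present in forebrain, and stage and tissue cannot be told apart here.

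**Figure D2:**
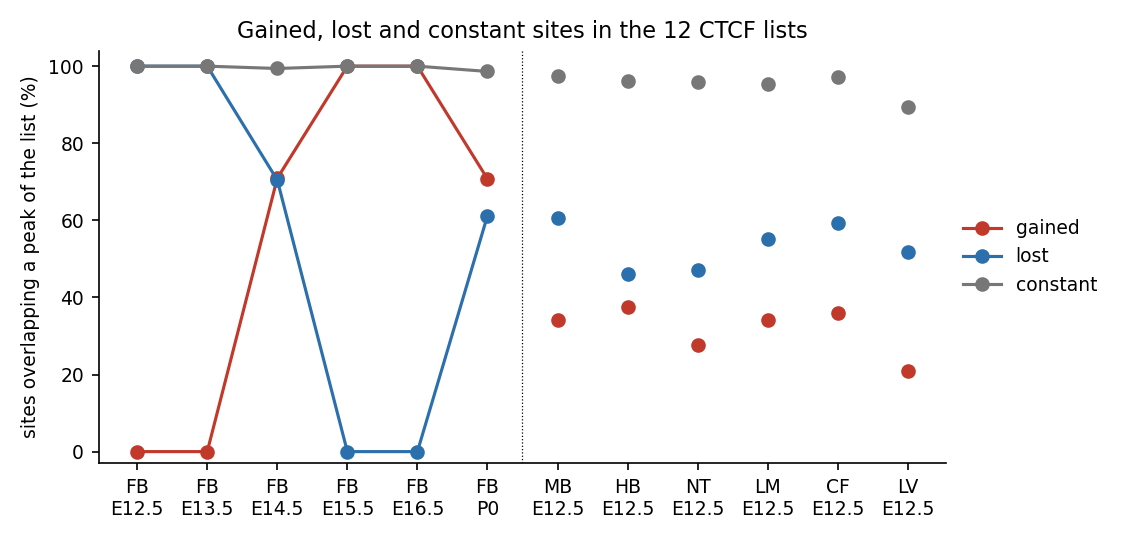
Percentage of gained (red), lost (blue) and constant (grey) sites that overlap a peak of each of the 12 CTCF lists, with the 6 forebrain (FB) stages joined by lines and, right of the dotted line, the E12.5 lists of liver (LV), craniofacial prominence (CF), limb (LM), neural tube (NT), hindbrain (HB) and midbrain (MB). The 4 stages of the rule are 0 or 100% by construction, gained and lost sites meet near 70% at E14.5, and lost sites are above gained sites in the 6 other tissues.

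A CTCF motif, at p 0.0001 for each position scanned on both strands, was present in 82.7% of gained, 88.5% of lost and 96.1% of constant sites, against 92.7% of all peaks at E16.5 and 93.8% at E12.5. At p 0.00001 the shares were 56.4%, 72.0% and 84.4%. The share at p 0.0001 also moved with fold enrichment. From 4 to below 6 it was 84.9% of gained sites against 88.7% of all peaks at E16.5. Lost sites there had 87.6% against 86.8% of all peaks at E12.5. Under 4, gained sites had 75.35% against 78.8%, and lost sites 87.6% against 78.2%. From 6 to below 8, gained sites had 87.55% against 93.2%, and lost sites 90.4% against 92.3%. The motif lay a median of 24 bp from the summit in gained, 19 bp in lost and 13 bp in constant sites. Of the sites with a motif, 34.0% of the gained, 38.4% of the lost and 46.1% of the constant ones held a CpG within it. The matrix was estimated from constant sites, so that class is not an independent comparison for these values.

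Position and base composition differed between the classes and moved with fold enrichment. A gained site lay within 1 kb of the start of a protein-coding gene in 24.9% of cases, a lost site in 6.72% and a constant site in 16.4%. Gained sites with a fold enrichment under 4 were promoter sites in 38.2% of cases, and the share fell through 22.5%, 12.2% and 3.85% to 2.44% of the 41 gained sites at 10 or more. Constant sites went from 23.7% to 15.3% over the same steps, and lost sites stayed between 5.63% and 10.1%. In the set of 103 gained and 29 lost sites the shares were 12.6% and 13.8%, so the contrast was not seen there. Median GC around the summit was 48.8% for gained sites under 4 and 36.8% for those at 10 or more, whereas constant sites stayed at 48.3% to 50.2% and lost sites at 47.3% to 49.5%. Repeats, as soft-masked in the reference, made up 34.8% of the bases around gained, 33.3% around lost and 19.3% around constant summits. This share also moved with fold enrichment, and constant sites had 30.7% from 4 to below 6 and 13.6% at 10 or more. From 4 to below 6, gained sites had 39.4% against 37.9% for all peaks at E16.5. Lost sites there had 33.9% against 32.55% for all peaks at E12.5. From 8 to below 10, gained sites, at 17.7%, lay below constant sites, and at 10 or more, at 22.35%, above them.

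**Figure D3:**
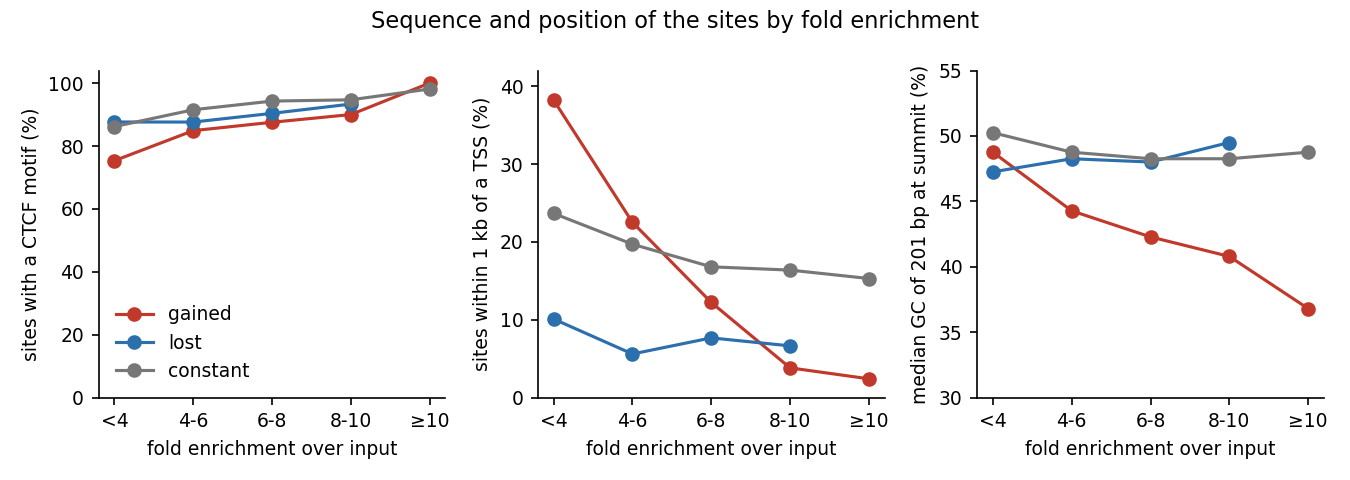
Share of sites with a CTCF motif, share within 1 kb of a transcription start site (TSS) and median GC, for gained (red), lost (blue) and constant (grey) sites in 5 ranges of fold enrichment (lost sites at 10 or more were too few to plot). With rising fold enrichment gained sites leave promoters, from 38.2% to 2.44%, and turn AT-rich, from 48.8% to 36.8% GC, while the other classes move less.

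Gained sites were nearest to 2862 protein-coding genes and lost sites to 805, with 224 genes nearest to both, out of 21924. The genes with the most gained sites were Olfr1324, an olfactory receptor gene, with 8, and Rbfox1, which encodes a neuronal splicing factor, with 7. Schip1, Celf2, Tbc1d22a, Tmem132c, Atp23, Ank3 and Cand1 had 5 each, of which Ank3 encodes the scaffold of the axon initial segment. At most 3 lost sites shared a nearest gene, at Adam6a and at Dapk1, a kinase gene. Rere, a corepressor gene, had 4 gained sites. Sipa1l1, 4930402H24Rik, Grb10, Irx1, Cyp2b10, Slc35b3, Vipr2 and Micall2 had 2 lost sites each.

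Several gene lists of the developing brain lay near gained sites more often than genes at large, of which 13.1% were nearest to a gained and 3.67% to a lost site. Genes differ in length and in the space around them, which a count of nearest sites does not correct for, and the share nearest to a constant site, 59.8% of all genes, is given for that reason. Every list but the clustered protocadherin genes (30.9%) lay above that share, so nearness was not particular to gained sites. It was 96.9% for channel, 95.45% for axon guidance and 90.2% for synapse genes, and 84.6% for progenitor and 84.2% for forebrain identity factors. Of 23 non-clustered cadherin and protocadherin genes, which encode adhesion proteins, 14 (60.9%) were nearest to a gained and 7 (30.4%) to a lost site, and 95.7% were nearest to a constant site. Pcdh10 and Pcdh7 had 3 gained sites each, Pcdh20 had 3 gained and 1 lost, and Cdh4 had 1 gained and 2 lost. Of 38 forebrain and cortical identity transcription factors, 14 (36.8%) were near gained and 8 (21.1%) near lost sites, among them Sox5, a regulator of deep-layer neurons, with 2 of each, and Six3, which patterns the anterior brain, with 2 lost.

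Of 44 axon guidance genes, 16 (36.4%) were near gained and 6 (13.6%) near lost sites. Efnb2 and Unc5d, which encode a guidance ligand and a netrin receptor, had 3 gained sites each, and Epha4 had 3 gained and 1 lost. Of 51 neuronal maturation and synapse genes, 16 (31.4%) and 6 (11.8%) were near gained and lost sites, with Cntnap2, the gene of a neuronal adhesion protein, at 3 gained sites. The strongest gained site of this list, at 12.1-fold at E16.5, was nearest to Gria2, an AMPA receptor subunit gene. Of 26 neural progenitor transcription factors, 9 (34.6%) were near gained and 2 (7.69%) near lost sites, the latter being Eomes and Id4.

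Potassium and sodium channel genes had 6 of 32 near gained sites, with Kcnj3 at 3, and 2 near lost sites. Wnt, Fgf and Bmp signalling genes had 9 of 53 near gained and 6 near lost sites, the latter Bmp2, Bmp7, Fgf14, Fgf15, Fgf9 and Tcf7l2. Clustered protocadherin genes had 8 of 55 near gained and 1 near a lost site. Of the 25 CTCF and cohesin genes, 6 were near gained sites, Stag1 with 3, and 0 near lost ones. Cell cycle genes had 2 of 32 near gained and 1 near lost sites, glial genes 2 and 1 of 23, embryonic timing genes 2 and 1 of 12, and housekeeping genes 4 and 0 of 25.

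Interactions with an end in a lost bin made up a smaller share of all calls in the later forebrain, measured in libraries that the rule did not use. A lost bin is an autosomal 10-kb bin that holds the midpoint of a lost and of no gained site, and there were 817 such bins, 3288 gained bins and 27214 constant bins with neither. Per 1000 called interactions, 14.6 and 14.7 ended in a lost bin in the 2 libraries at E12.5 and 13.1 and 12.8 in those at E13.5. The values were 10.9 and 11.4 at E15.5 and 10.8 and 10.2 at E16.5. The 4 later libraries lay below the 4 earlier ones without overlap, with means of 10.8 ± 0.467 and 13.8 ± 1.02 (SD, n = 4 libraries each), a difference of -2.99 (exact permutation test over 70 ways, 2-sided p = 0.0286, the smallest this design allows). Not divided by the library total, the mean number went the other way, from 314.2 ± 75.6 to 375.8 ± 24.3 (SD, n = 4 each, exact permutation p = 0.257), and with a mutual overlap of 50% the share did not pass (difference -4.16, exact permutation p = 0.143). At the stages outside the comparison, E14.5 stood between with 11.9 and 11.5, and P0 at 10.99 and 10.5.

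Whether interactions at gained bins differed depended on which bins were counted. Per 1000, they were 127.9 and 139.3 at E12.5, 129.9 and 134.2 at E13.5, 140.8 and 133.0 at E15.5, and 137.8 and 144.0 at E16.5. The groups overlapped, with means of 132.9 ± 5.07 early and 138.9 ± 4.67 late (SD, n = 4 each, difference 6.06, exact permutation p = 0.143). With the top 30000 peaks of each list the means were 30.9 ± 2.38 early and 37.7 ± 1.37 late (SD, n = 4 each, exact permutation p = 0.0286). With a mutual overlap of 50% they were 95.7 ± 2.91 and 103.5 ± 2.36 (SD, n = 4 each, exact permutation p = 0.0286). The gained sites of these settings differ, and 103 of 1017 (10.1%) and 2805 of 3923 (71.5%) were gained in the full lists too. Of the 3288 gained bins, 1034 (31.4%) also held a constant site. In the gained bins that held none, the values were 40.1, 44.2, 44.9 and 44.8 in the 4 early libraries and 52.0, 48.9, 50.4 and 52.4 in the 4 late ones, with means of 43.5 ± 2.26 and 50.9 ± 1.61 (SD, n = 4 each) and no overlap (difference 7.42, exact permutation p = 0.0286). Lost bins without a constant site went from 8.33 ± 1.05 to 6.01 ± 0.333 (SD, n = 4 each, exact permutation p = 0.0286).

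The log2 ratio of interactions at gained bins to those at lost bins, which does not depend on the total of a library, rose from 3.27 ± 0.112 early to 3.68 ± 0.108 late (SD, n = 4 each). The difference of 0.41 had an exact permutation p of 0.0286, and the 4 late libraries lay above the 4 early ones. With the top 30000 peaks of each list the difference was 0.50, with the second lists 0.25, with a mutual overlap of 50% 0.18, and without bins that held a constant site 0.69, all at the same exact permutation p. Except for the last, these settings also changed the sites. With the top 30000, 10.1% of the gained and 3.15% of the lost sites were gained or lost in the full lists too. The shares were 67.45% and 26.5% with the second lists, and 71.5% and 32.9% with the mutual overlap. Constant bins held 738.8 ± 5.81 interactions per 1000 early and 721.0 ± 5.95 late (SD, n = 4 each, difference -17.8, exact permutation p = 0.0286), a fall of a few percent against the larger one at lost bins. The E12.5 libraries had 16075 and 18413 interactions and the 6 others 27156 to 36794, so the total moved with the groups, and its part in these values was not tested.

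**Figure D4:**
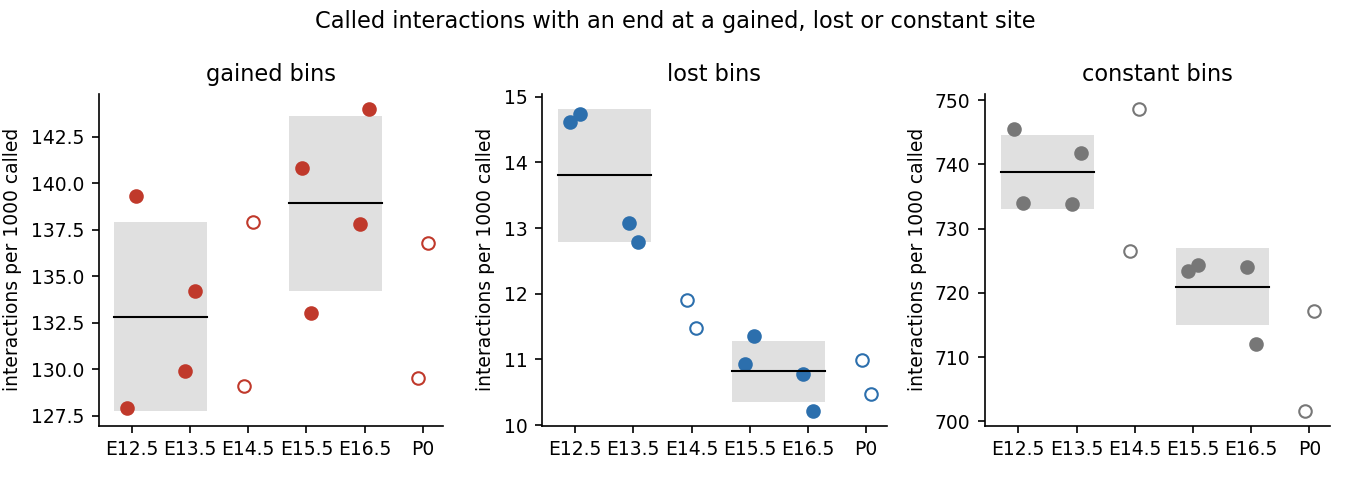
Called interactions per 1000 with an end in a gained (red), lost (blue) or constant (grey) bin, 2 libraries for each forebrain stage, on axes that do not start at 0. Filled points are the 4 stages compared, open points E14.5 and P0, and each black line with its grey band is the mean ± SD of 4 libraries. Lost bins fall from a mean of 13.8 early to 10.8 late with no overlap between the libraries, and gained bins overlap.

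In the pooled calls, 8401 interactions were called at E15.5 and E16.5 and at neither early stage, and 3613 at both early stages only. Of the late ones, 13.05% ended in a gained and 1.04% in a lost bin. The early ones did so in 8.75% and 2.05% of cases. The 15656 interactions called at all 4 stages did so in 14.6% and 1.26%. A constant bin held an end of 66.3% of the late, 67.4% of the early and 77.0% of the persistent ones. These shares come from 1 pooled set of calls for each stage and have no replicate error.

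The direction of interactions relative to the motif was read in the 2245 gained and 624 lost bins whose motif-bearing peaks all pointed 1 way. These peaks could be of any of the 4 lists, not only gained or lost sites. Bins that also held a constant site, 31.4% of all gained and 20.2% of all lost bins, were not left out. In gained bins, 71.2% ± 1.17 of interactions ran in the motif direction early and 68.1% ± 0.897 late (SD, n = 4 each, difference -3.12 points, exact permutation p = 0.0286). In lost bins the shares were 65.1% ± 4.01 and 58.1% ± 1.73 (difference -7.03 points, exact permutation p = 0.0286, n = 4 each). The 4 late libraries at lost bins had 58.8%, 57.3%, 56.0% and 60%, from 170 to 218 interactions each, and the early ones 60.8%, 70.2%, 63.5% and 65.8%, from 121 to 230. Constant bins had 79.2% ± 0.970 early and 77.6% ± 1.04 late, which was not tested, and the groups did not overlap there either. With the top 30000 peaks of each list the difference at lost bins was -1.96 points (exact permutation p = 0.400, n = 4 each), and with the second lists -2.20 points (p = 0.0571). At gained bins the same settings gave -4.19 points (exact permutation p = 0.0571) and -3.17 points (p = 0.0857), so neither call was kept with those lists.

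**Figure D5:**
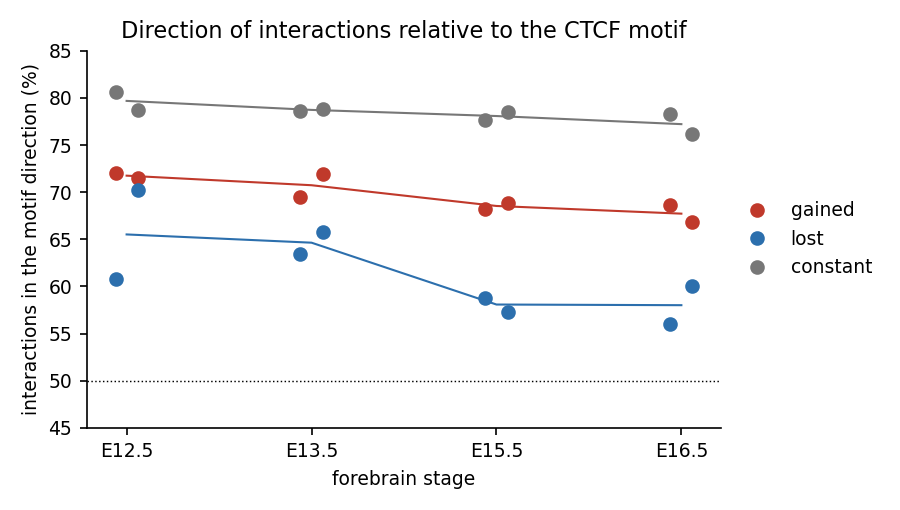
Percentage of interactions that run from a bin in the direction shared by its CTCF motifs, for gained (red), lost (blue) and constant (grey) bins, with 2 libraries for each stage and lines through their means, and the dotted line at 50%. The order is constant, gained, lost in all 8 libraries, and lost bins go from a range of 60.8 to 70.2% early to 56.0 to 60% late.

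Bin by bin, few gained or lost bins were called. On simulated numbers this fit recovered 13.5% of the bins changed 3-fold, so a bin without a call need not be unchanged. Numbers of interactions were scaled to the median library total and fitted with limma on log2(number + 1), with 9662 CTCF bins at a mean of at least 1, of which 2.31% were called higher and 1.29% lower in the late libraries at an adjusted p below 0.05. Of the 809 gained bins that passed the filter, out of 3288, 23 (2.84%) were higher and 5 (0.618%) lower. Of the 101 lost bins that passed, out of 817, 0 were higher and 4 (3.96%) lower. The median difference was 0.05 over gained, -0.35 over lost and -0.07 over all tested bins (log2). At an unadjusted p below 0.05, 3 lost bins were higher and 21 lower, against 117 and 69 gained bins and 982 and 1038 of all 9662. With 1 library left out, 3 (without E16.5 replicate 1) to 54 (without E13.5 replicate 1) gained bins were higher and 1 to 15 lower, and 1 to 4 lost bins were lower. The 3 were 0.377% of gained bins, against 0.472% of all bins, and the 54 were 6.67%, against 4.70%. Without E13.5 replicate 1, 15 gained bins (1.85%) and 4 lost bins (4%) were lower, against 2.49% of all bins. The count of higher gained bins moved by more than 1.5 times without either E12.5 library, E13.5 replicate 1 or any late library. Fitted with edgeR, 0 lost bins were higher and 1 (0.990%) lower, and 3 gained bins (0.371%) higher and 1 (0.124%) lower. Of all bins, edgeR called 0.455% higher and 0.290% lower, so the share of higher gained bins lay below that of all bins.

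The lost bin with the largest fall held a site 6.01 kb from Id4, which encodes an inhibitor of basic helix-loop-helix factors in progenitors (chromosome 13, 48250001 to 48260000). Its scaled numbers were 10.2, 17.4, 7.07 and 8.04 in the 4 early libraries and 0.990, 0.880, 0.880 and 0.850 in the 4 late ones, a difference of -2.54 ± 0.29 (log2, SE, adjusted p = 0.0023). It was called in all 8 fits that left out 1 library. The other 3 lost bins, nearest to Tcf7l2, Micall2 and Rbm19, were called in at most 1 of those 8 fits. The Rbm19 site, 106.7 kb from the gene, had a fold enrichment of 8.06 at E12.5 and 9.34 at E13.5.

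Among gained bins, the one at the promoter of Khdrbs2, a neuronal RNA-binding protein gene, had 0 interactions in all 4 early libraries and 2.97, 6.14, 6.18 and 7.63 in the late ones (adjusted p = 0.0023). The bin at the promoter of Shisa9, which encodes an AMPA receptor auxiliary protein, had 0, 0, 1.01 and 0 early and 4.95, 4.39, 5.30 and 7.63 late (adjusted p = 0.0051). Both also held a constant CTCF site. An interaction is callable only where either end has an H3K4me3 peak at that stage, so 0 calls need not mean no contact. The bin near Mrps10, with the strong gained site described above and no constant site, had 0 early in all 4 libraries and 3.96, 1.76, 2.65 and 2.54 late (adjusted p = 0.0138). The first 2 were called in all 8 fits that left out a library, and the Mrps10 bin in 5. Zfpm2, Nudcd1, Ank, Kctd12, Rbfox1, Jakmip1 and Hivep3 were nearest to the other 7 of the 10 gained bins with the largest rises.

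Gained bins with falls were nearest to Gtf3a, Lyrm7, 1810010D01Rik, Gpa33 and Cfap77. The Gtf3a bin had 3.39, 3.88, 2.02 and 2.30 interactions early and 0 in all 4 late libraries (adjusted p = 0.0124). The Gpa33 bin went from 11.8 ± 4.03 to 3.82 ± 1.13 (SD, n = 4 libraries, limma adjusted p = 0.0279) and was called in 1 of the 8 fits that left out a library.

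Gene by gene, calls were also counted at promoters, and no test compared genes near sites with the rest. Of 5434 protein-coding genes tested for the number of interactions at their start sites, 3.53% were higher and 1.58% lower late. Of the 1236 tested genes nearest to a gained site, 76 (6.15%) were higher and 18 (1.46%) lower, with a median difference of 0.22 against 0.12 over all tested genes (log2). Of the 322 tested genes nearest to a lost site, 22 (6.83%) were higher and 10 (3.11%) lower, with a median of 0.19. A total of 133 tested genes were near both kinds of site and count in both groups. Without scaling, the median of all tested genes moved from 0.12 to 0.54, and 98.9% of the called genes were higher in place of 69.1%, so directions are relative to the library total. Leaving out either E12.5 library, any of the 4 late libraries or E13.5 replicate 1 moved the count of higher or lower genes by more than 1.5 times, between 46 and 324 higher and 19 and 123 lower. In the same fits the higher genes near gained sites went from 13 (1.09%, against 0.923% of all genes, without E16.5 replicate 2) to 113 (9.09%, against 5.96%, without E13.5 replicate 1), and those near lost sites from 4 to 31. Of the tested genes near lost sites these were 1.28% without E16.5 replicate 2 and 9.63% without E13.5 replicate 1.

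The largest rise near a gained site was at Grin2b, which encodes an NMDA receptor subunit. Its scaled numbers were 0, 0, 3.03 and 1.15 early and 8.92, 10.5, 13.2 and 16.9 late, a difference of 2.93 ± 0.45 (log2, SE, adjusted p = 0.0041), and the groups did not overlap. The gained site lay 41.2 kb away with a fold enrichment of 3.81. B3gat1, which makes the HNK-1 carbohydrate of neural adhesion molecules, had 0, 0, 1.01 and 0 early and 7.92, 9.66, 8.83 and 4.24 late, with its site 611.5 kb away. Khdrbs2, Ctnna1, Pdzd2, Zfpm2, Nav3, Tnik, Cnr1 and Nudcd1 completed the 10 largest, with differences of 2.49 to 2.69. Of these 10, 6 were called in all 8 fits that left out a library, and Cnr1, the cannabinoid receptor gene, in 3.

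The falls near gained sites included regulators of progenitors and of patterning. Hmga2, a chromatin protein gene of young progenitors, with 2 gained sites, went from 37.2, 25.2, 14.1 and 16.1 to 2.97, 2.63, 8.83 and 8.47 (difference -1.90 ± 0.37, log2, SE, adjusted p = 0.0105). Emx2, which patterns the cortex, went from 142.2 ± 38.1 to 63.2 ± 8.31 (SD, n = 4, limma adjusted p = 0.0088). Sp8, another patterning factor, went from 30.9 ± 6.05 to 11.5 ± 3.01 (SD, n = 4, limma adjusted p = 0.0056). These 3 were called in all 8 fits that left out a library. Cdk15, Ccdc182, Fgfr3, Gli3, Tcf7l1, Irx2 and Stk11 were the other 7, called in 2 to 4 of those fits.

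Near lost sites, rises and falls both occurred. Tcf7l2, a transcription factor of Wnt signalling with a lost site 174.5 kb away, had 40.6, 60.1, 33.3 and 51.7 interactions early and 27.7, 14.9, 16.8 and 7.63 late (difference -1.51 ± 0.30, log2, SE, adjusted p = 0.0131) and was called in all 8 fits. Six3, with 2 lost sites, went from 101.0 ± 22.8 to 58.8 ± 10.6 (SD, n = 4, limma adjusted p = 0.0443, called in 2 of the 8 fits). Pax7, Pappa, Irx2, Qrich2, Sall1, Jun, Gas1 and Evx2 were the other genes near lost sites that were lower. Ripor2, 10.3 kb from its lost site, rose from 1.28 ± 0.938 to 8.07 ± 0.524 (SD, n = 4, limma adjusted p = 0.0094, called in 7 of the 8 fits). Sox5, with 2 gained and 2 lost sites, rose from 7.64 ± 6.73 to 27.6 ± 5.17 (SD, n = 4, limma adjusted p = 0.0197, called in 2 of the 8 fits). Ntm, Cdh13, Ryr3, Nrg3, Ptprz1, Ntrk3, Ctnnd2 and Khdrbs2 made up the rest of the 10 largest rises.

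The lists are to be read beside all 5434 tested genes, of which 3.53% were higher and 1.58% lower, with a median of 0.12. Of those 5434, 1236 were nearest to a gained site. By list, 6 of 33 tested neuronal maturation and synapse genes (18.2%) were higher and 0 lower, with a median of 0.77. Of the 6, 4 were nearest to a gained site, Gria2, Grin2b and Rbfox1 among them. Of 9 tested non-clustered cadherin and protocadherin genes, 3 were higher and 0 lower. Pcdh7 was nearest to gained sites, and Cdh13 and Pcdh9 to 1 gained and 1 lost site each. Of 18 tested potassium and sodium channel genes, 5 were higher and 0 lower, and none of the 5 was nearest to a gained or lost site. The 5 were Kcnq3 and Kcnq5, of potassium channels, and Cacna1c, Cacna1e and Cacna2d1, which encode calcium channel subunits despite the name of the list. Of 24 tested neural progenitor factors, 0 were higher and 8 lower, with a median of -0.70, and 2 of the 8, Gli3 and Emx2, were nearest to a gained site. Forebrain and cortical identity factors had 4 higher and 7 lower of 37, and Wnt, Fgf and Bmp genes 0 and 3 of 37.

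The other lists had few calls. Axon guidance genes had 1 higher and 1 lower of 32 tested, glial genes 1 and 2 of 11, cell cycle genes 0 and 1 of 12, and embryonic timing genes 0 and 2 of 6. Clustered protocadherin, CTCF and cohesin, and housekeeping genes had no call, at 8, 7 and 10 tested.

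The forebrain label was checked on numbers of interactions at marker promoters. Six3 and Lhx2, factors of the anterior brain and cortex, had 55 to 79 and 78 to 93 called interactions in the 8 libraries. These numbers are not scaled to the library total, and for Six3 they were 64, 67, 79 and 75 early and 73, 64, 68 and 55 late, so that its lower scaled number late rests on the scaling. Prrx1, Col1a2, Alb, Afp, Hbb-bt, Cdh5, Kdr, Tek, Cx3cr1 and Csf1r, markers of mesenchyme, liver, blood, endothelium and microglia, had 0 in all 8, and Twist1, Col1a1, Pecam1 and Spi1 of the same lists had 0 to 5. By contrast, the hindbrain and spinal marker Hoxb4 had 1 to 24, which moved with stage, from 11 to 24 early to 1 to 20 late. Its part in the results was not tested.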

How the data were processed

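CTCF ChIP-seq lists were read as deposited. The authors mapped reads to mm10 with the ENCODE pipeline, called peaks with MACS2 on pooled libraries and kept those overlapping peaks of both replicates. That filter cannot apply as such to the single library at P0. Column 7 holds the fold enrichment over input, a ratio. How the second deposited list of each stage was made is not given in the sources used here. For PLAC-seq, the authors deposited MAPS calls between 10-kb autosomal bins 20 to 1000 kb apart, with the observed read-pair count and the expected signal of each, and every observed-to-expected ratio was at least 2. By the paper, MAPS tests only bin pairs with an H3K4me3 peak of the same tissue at either end, so a pair may be untestable elsewhere. The paper therefore compared samples on a union of peaks, whereas the calls counted here were those deposited for each library or stage. Numbers of calls can thus move with H3K4me3 peaks between stages, which was not tested. Only the number of calls was tested here.

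Sites followed the overlap rule of 1 bp. Members and gene lists were chosen with earlier results of these data known. Transcription start sites came from GENCODE M21 on GRCm38, the assembly of mm10. No sequence on chromosome 18 was printed. A few genes and 1 site sequence are not reported here. Library values were compared with exact permutation tests, 2-sided. Numbers per bin and gene were fitted with limma 3.58.1 (trend, R 4.3.3), with Benjamini-Hochberg adjustment over all features tested, and edgeR 4.0.16 as an alternative. On simulated numbers with 200 features changed 3-fold, limma recovered 13.5% over 9529 bins and 19.5% over 5392 genes, so most changes of that size would be missed, and 10% and 2.5% of the calls were false. Named were the 10 gained and 10 lost sites of highest mean fold enrichment, list members nearest to sites, the 10 genes with most sites, and up to 10 tested genes or bins for each direction by size of difference. Interaction numbers have no interval, and p-values cover the spread between libraries. Replicate numbers did not pair the libraries, with correlations of deviations from -0.03 to 0.05. The alternatives tried were other list lengths, lists, overlaps, motif thresholds, filters, scalings and left-out libraries.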

Additional observations from a re-analysis of the deposited data

Results flagged for a closer look

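The change from early to late forebrain differed between gained and lost bins. The log2 ratio of their interactions moved by 0.41 (exact permutation test, p = 0.0286, higher in 4 of 4 late libraries). Lost bins were lower, and gained bins passed the test in some settings and not in others.

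Some single values stood apart within their group, among 20 groups examined, where chance gives about 1 in 20. At constant bins, E16.5 replicate 2 had 712.1 interactions per 1000 against 723.4 to 724.4 in the other late libraries. In the direction of the motif, E12.5 replicate 1 had 80.7% of interactions at constant bins against 78.6 to 78.8% in the other early libraries. The liver list at E12.5 held 89.3% of the constant sites, and the other 5 tissues held 95.5 to 97.4%.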

How the results depend on the processing

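The number of gained sites was 1017 with the top 30000, 1026 with the second lists and 103 among the top 30000 but in no full list of the other stages, and that of lost sites 2237, 2441 and 29 with the second lists, a 50% mutual overlap and the latter set. Gained sites had a motif in 91.5, 88.4, 88.6, 86.0 and 56.4% (top 30000, the set of 103, 50% overlap, shared summit, stricter motif) and lost sites in 95.2 and 72.0% (top 30000, stricter motif). Within 3 kb of a start lay 30.5, 22.3, 43.1, 32.7, 35.3 and 34.0% of gained sites (top 30000, set of 103, second lists, 50% overlap, motif peaks, shared summit) against 37.0%, and 20.7, 18.7 and 31.9% of lost sites (set of 29, second lists, 50% overlap) against 15.6%, and within 1 kb 24.9 and 6.72%. The shared-summit setting was chosen after seeing the data. Of the sites found with the top 30000, 10.1% of the gained and 3.15% of the lost ones were gained or lost in the full lists too.

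Interactions at gained bins passed the threshold with the top 30000 (6.84), a 50% overlap (7.81), no constant site in the bin (7.42) and numbers not divided by the library total (1766), and ranged from 4.36 to 8.22 with 1 library left out. Lost bins gave -4.16 with a 50% overlap (exact permutation p = 0.143), and without that division the sign turned, to 61.5 at lost (exact permutation p = 0.257) and 7979 at constant bins. With 1 library left out, lost bins ranged from -3.33 to -2.67, constant bins from -19.4 to -14.8, the log2 ratio from 0.37 to 0.46, and the motif direction from -3.69 to -2.68 points (gained) and -8.46 to -5.31 (lost), where leaving out any late library gave an exact permutation p of 0.0571. The motif direction at gained bins was -4.19 with the top 30000 and -3.17 with the second lists, and at lost bins -1.96 and -2.20, and none of the 4 passed. With permutation within replicate number (the replicate block), which cannot go below p = 0.0556, the differences stayed at 6.06 (gained), -2.99 (lost), 0.41 (ratio), -17.8 (constant), -3.12 and -7.03 (direction), and none passed. The contrast of lists outside the rule ranged from 0.77 to 0.98 with 1 list left out, and without the E14.5 or the P0 list (0.98 and 0.78) the smallest possible p is 0.143.

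Bins called higher and lower were 223 and 125, and 44 and 28 with edgeR, 347 and 31 unscaled (91.8% of calls higher in place of 64.1%, median of all bins from -0.07 to 0.38), 77 lower with a pseudocount of 0.5, 70 lower with no filter, 80 lower with the replicate block, and 45 to 452 and 28 to 239 with 1 library left out, lowest without E16.5 replicate 1 (higher) and replicate 2 (lower) and highest without E13.5 replicate 1. Genes called were 192 and 86, and 126 and 54 with edgeR, 435 and 5 unscaled, 48 lower with a pseudocount of 0.5, 52 lower with the replicate block, and 46 to 324 and 19 to 123 with 1 library left out. The causes were not tested. Replicate numbers shared no deviation between stages.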
